A study of Mus musculus with 16 samples.

Results

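The genes described here are 10 mouse genes of the early transcriptional response to growth factor signalling, taken by symbol from the IER, BTG and ZFP36 families together with Phlda1 and Mcl1. They are Ier2, Ier3, Ier5, Phlda1, Mcl1, Btg1, Btg2, Zfp36, Zfp36l1 and Zfp36l2, 10 of the 52636 gene IDs in the count table. The rule that selects them uses gene names. All 10 were among the 12742 genes that passed the filter on low counts. RNA was sequenced after ribosomal RNA depletion from CRAFR26 cells, a line made by targeting mouse embryonic stem cells with a c-RAF kinase construct that 4-hydroxytamoxifen switches on, which activates ERK. The cells had been differentiated to the state labelled RSC, and the design asks which transcripts follow ERK activity and which return when it is blocked. All groups shared 48 h of the FGF receptor inhibitor PD173074 at 250 nM, given in place of the MEK inhibitor of the routine medium (N2B27 with 2 µM IWP2, 1 µM PD0325901 and 1000 U/ml LIF). Uninduced cells form the group 0h. The groups named 2h and 4h had received 250 nM tamoxifen for that long, and rev cells had tamoxifen for 4 h followed by 2 h of a MEK inhibitor whose dose is not stated. Each group held 4 libraries, 2 from clone 4 and 2 from clone 8, so each clone stands for 1 line. The labels name no vehicle and no separate cultures, and p-values therefore measure the spread between these libraries, which may be technical. No group with 6 h of tamoxifen and no inhibitor was analysed here, so the inhibitor and the longer culture cannot be told apart at rev.

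Immediate-early genes are transcribed within minutes of a signal without new protein synthesis, and ERK drives many of them by phosphorylating ETS-family cofactors of the serum response factor SRF at their promoters. ZFP36, ZFP36L1 and ZFP36L2 are zinc-finger proteins that bind AU-rich elements in messenger RNAs and recruit the CCR4-NOT deadenylase, which shortens the poly(A) tail and starts decay. BTG1 and BTG2 are antiproliferative proteins that bind the deadenylase subunit CAF1, and Btg2 is also a known target of p53. IER2 is a nuclear protein, IER3 acts in stress and survival signalling, and IER5 is a partner of the heat shock factor HSF1. PHLDA1 carries a pleckstrin-homology-like domain, and MCL1 is a short-lived survival protein of the BCL2 family.

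Promoter sequence, from RefSeq on GRCm38.p6, was found for 7 of the 10 genes, with no entry for Ier2, Phlda1 and Zfp36l2. The 250 bases upstream of the start were searched on both strands for a CArG box (the site of SRF, by its consensus), an ETS core CCGGAA, a cAMP response element TGACGTCA, an AP-1 element TGACTCA and a TATA box TATAAA. The windows with a match are shown because they set the genes that moved beside one that did not, with the match in capitals. The windows of Mcl1 (chr3:95658471-95658720, plus strand), Btg2 (chr1:134079156-134079405, minus strand), Zfp36l1 (chr12:80113014-80113263, minus strand) and Btg1 (chr10:96616751-96617000, plus strand) are complete. For Zfp36, whose upstream window lies in an annotated untranslated region, only the 30 bases at chr7:28379267-28379296 on the minus strand are given.
Mcl1: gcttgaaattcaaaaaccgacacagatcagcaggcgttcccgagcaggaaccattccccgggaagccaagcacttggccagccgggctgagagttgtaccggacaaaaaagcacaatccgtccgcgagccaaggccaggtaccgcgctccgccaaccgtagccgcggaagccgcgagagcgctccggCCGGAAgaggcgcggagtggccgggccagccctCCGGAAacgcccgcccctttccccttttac
Btg2: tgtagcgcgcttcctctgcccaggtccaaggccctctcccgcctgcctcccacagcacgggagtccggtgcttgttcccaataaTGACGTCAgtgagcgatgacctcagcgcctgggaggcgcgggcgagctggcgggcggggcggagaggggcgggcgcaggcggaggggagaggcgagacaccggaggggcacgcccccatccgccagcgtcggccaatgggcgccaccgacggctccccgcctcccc
Zfp36l1: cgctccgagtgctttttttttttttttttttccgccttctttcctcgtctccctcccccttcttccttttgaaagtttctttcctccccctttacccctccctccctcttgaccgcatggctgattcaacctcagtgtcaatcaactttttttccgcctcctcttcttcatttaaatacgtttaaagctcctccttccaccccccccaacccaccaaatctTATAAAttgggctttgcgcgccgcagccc
Btg1: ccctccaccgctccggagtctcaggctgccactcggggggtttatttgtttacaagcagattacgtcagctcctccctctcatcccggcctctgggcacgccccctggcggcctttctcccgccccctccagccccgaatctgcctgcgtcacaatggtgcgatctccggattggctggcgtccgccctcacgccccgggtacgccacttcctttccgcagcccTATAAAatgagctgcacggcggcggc
Zfp36: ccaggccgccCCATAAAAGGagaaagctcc
Counted from the start, Mcl1 held ETS cores at -63 to -58 and -30 to -25. The cAMP response element of Btg2 lay at -166 to -159. TATA boxes lay at -29 to -24 in Zfp36l1 and at -26 to -21 in Btg1. The CArG box of Zfp36 lay at -58 to -49, with an ETS core at -92 to -87. Of 32851 promoter windows of this length, 1.47% held a CArG box, 1.55% the cAMP response element, 4.46% the AP-1 element, 12% the ETS core and 12.4% the TATA box. The windows of Ier3 and Ier5 matched none of these search patterns. Both hold TATAAG, which differs from the searched TATAAA in its last base, and such variants were not searched in any window. A match is a description of the sequence and not evidence of binding.

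Library totals ran from 4.31 to 10.4 M counts. A group of 8 features, each above 1% of all counts, held 46.7% to 78.9% of a library. The highest share and the smallest remainder, 1.3 M counts, belonged to clone 8 library 1 at rev, whose scaling factor (TMM) was 0.537. Calls and clone differences that changed when it was left out are given with each gene. Fits of clone 8 alone, and ratios of summed counts at rev, were not repeated without it. On the third principal component, with 8.57% of the variance of the 500 most variable genes, all libraries at 0h and 4h scored from 3.56 to 11 and all at 2h and rev from -12.11 to -3.27. Totals were 4.31 to 9.12 M in the former and 6.16 to 10.4 M in the latter. All 8 pluripotency markers (among them Pou5f1, Sox2 and Nanog) passed the filter and summed to 1030 to 1880 CPM, while the 5 fibroblast markers all fell below it at 0.613 to 3.47 CPM. The rosette or formative markers, of which 4 of 5 passed, summed to 31.5 to 147 CPM, and Fgf5 held at most 1 count at 0h. Neural markers summed to 32.5 to 78.1 CPM, most of it Tubb3, trophoblast markers to 5.89 to 25.2 CPM, primitive endoderm markers to 3.06 to 7.18 CPM and mesoderm markers to 1.43 to 4.54 CPM, with Mesp1 at the floor of 3 counts or fewer.

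Of the 10 genes, 7 were higher at 2h than at 0h by edgeR's quasi-likelihood test (adjusted p under 0.05), namely Phlda1, Zfp36l1, Zfp36, Ier2, Zfp36l2, Btg2 and Mcl1, and none was lower. Over all 12742 genes tested, 9.49% were called higher and 17% in either direction. At 4h against 0h, 4 remained above the threshold (Phlda1, Zfp36l1, Zfp36l2 and Zfp36), with 7.35% of all genes called higher and 12.9% in either direction. Between 2h and 4h, 3 fell (Btg2, Ier2 and Mcl1), against 6.36% of all genes lower and 12.1% in either direction. At rev, 3 were lower than at 4h (Phlda1, Zfp36l1 and Zfp36l2) and 1 was higher (Btg2), while 5.1% of all genes were lower, 4.5% higher and 9.61% called in either direction. No call was made at rev against 0h by edgeR, where 10.5% of all genes were called, although 2 genes had an unadjusted p under 0.05 and DESeq2 called 1. The 4 genes lower at rev than at 2h were Phlda1, Zfp36l1, Zfp36l2 and Ier2, against 1.01% of all genes lower and 1.78% in either direction. Ier3, Ier5 and Btg1 passed in none of these 6 comparisons.

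The median log2 change of the 10 genes was 0.75 at 2h against 0h, with a median of 0 over all genes tested. It was 0.25 at 4h against 0h (all genes -0.01), -0.29 at rev against 4h (all genes 0) and 0.28 at rev against 0h (all genes 0). These comparisons share libraries, so their values for a gene are not independent of each other. When counts were scaled by library totals instead of TMM, the median of all genes moved to 0.11 at 2h against 0h, -0.14 at 4h against 2h, -0.2 at rev against 4h, -0.24 at rev against 0h and -0.35 at rev against 2h. Counting genes whose 4 libraries all lay beyond the 4 of the other group gave 7 above at 2h against 0h (8.59% of all genes), 4 above at 4h against 0h (7.37%) and 1 below at 4h against 2h (5.4%). It gave 4 below at rev against 4h (4.58%), 3 above at rev against 0h (6.19%) and 5 below at rev against 2h (3.35%). The calls between groups that did not survive that scaling are named with each gene, and the clone differences lost with it are listed where the clones are compared. CPM values are counts per M counts of the genes kept, TMM-scaled, and changes are log2 of the fitted ratio.

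**Figure D1:**
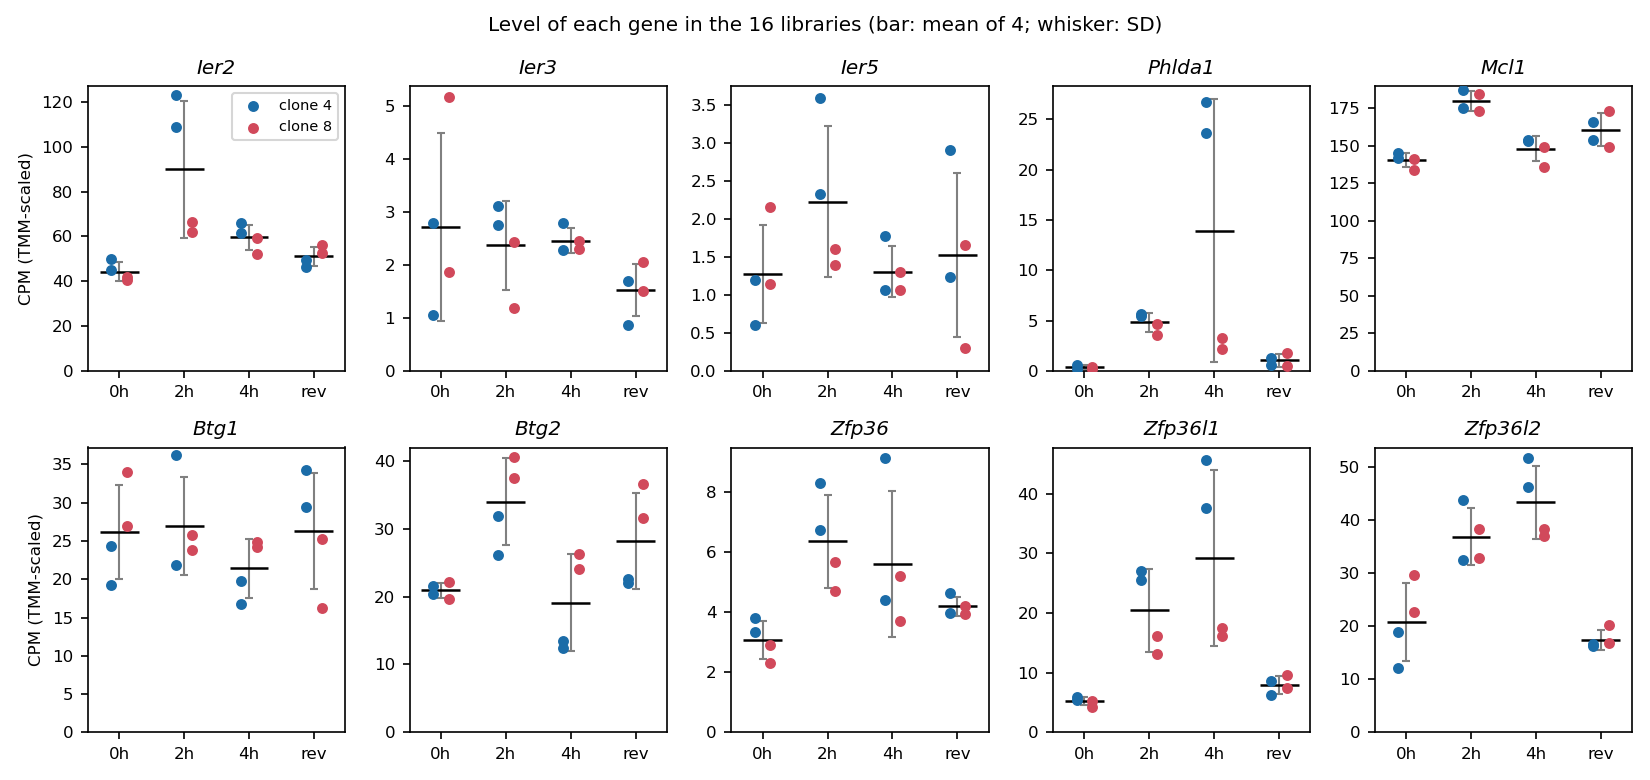
TMM-scaled CPM (vertical axes, linear) of the 10 genes in the 4 groups, 1 panel per gene, with a point for each library coloured by clone, a bar at the mean of 4 libraries and a whisker of 1 SD. Zfp36l1 and Phlda1 are highest at 4h in clone 4, Ier2 at 2h in clone 4, and Btg2 stands higher at 2h and rev than at 4h.

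Before induction the genes spanned a wide range of levels. Per kilobase of exon, the mean at 0h was 41.1 CPM for Mcl1 (SD 1.43, n = 4), 29.1 for Ier2 (SD 2.75) and 7.62 for Btg2 (SD 0.412). It was 5.9 for Zfp36l2, 4.96 for Btg1, 2.41 for Ier3, 1.75 for Zfp36l1, 0.889 for Zfp36, 0.389 for Ier5 and 0.158 for Phlda1. Libraries of neighbours in this order overlapped between Btg2 and Zfp36l2, Zfp36l2 and Btg1, Btg1 and Ier3, Ier3 and Zfp36l1, and Ier5 and Phlda1. Mcl1, Ier2, Zfp36l1 and Zfp36 each stood above the next gene in every library.

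Among the mRNA-decay factors, Zfp36l1 (ENSMUSG00000021127, chr12:80107754-80113013, minus strand) changed most. It read 5.99 and 5.46 CPM in the clone 4 libraries and 5.19 and 4.31 CPM in the clone 8 libraries at 0h. At 2h it read 27 and 25.6 CPM in clone 4 and 16.1 and 13.1 CPM in clone 8. At 4h it read 37.6 and 45.7 CPM in clone 4 and 17.5 and 16.2 CPM in clone 8. Every induced library thus exceeded every uninduced one, and every induced clone 4 library exceeded every induced clone 8 library. At rev it read 8.7 and 6.21 CPM in clone 4 and 9.69 and 7.42 CPM in clone 8, below all libraries at 2h and 4h and above all at 0h. The rise was 1.89 at 2h (SE 0.226, edgeR adjusted p = 2.2e-05) and 2.36 at 4h (SE 0.227, edgeR adjusted p = 1.43e-06). The fall from 4h to rev was -1.85 (edgeR adjusted p = 2.49e-05). Against 2h, rev was at -1.39 (edgeR adjusted p = 0.0012; 0.101 without the clone covariate), and rev against 0h was not called at 0.50 (95% interval -0.04 to 1.04). An opposite-strand gene, Gm26669, shares 55.9% of the Zfp36l1 exon length and held 0 to 3 counts in any library. Whether reads were assigned by strand is not given in the sources used here.

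The response of Zfp36l1 was larger in clone 4. Fitted alone, clone 4 rose by 2.84 at 4h and clone 8 by 1.81, and the difference (clone 8 minus clone 4) was -1.03 (SE 0.297, edgeR adjusted p = 0.0321). This difference did not pass with DESeq2 (adjusted p = 0.0743), nor when any 1 of 7 of the 8 libraries at 0h and 4h was left out (edgeR adjusted p from 0.0508 to 0.285), the exception being clone 4 library 1 at 4h. From 4h to rev the fall was -2.46 in clone 4 and -1.05 in clone 8, a difference of 1.42 (SE 0.268, edgeR adjusted p = 0.000389).

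Zfp36l2 (ENSMUSG00000045817, chr17:84183931-84187947, minus strand) started from different levels in the clones. At 0h it read 19 and 12.1 CPM in clone 4 and 29.7 and 22.6 CPM in clone 8. The clone 8 libraries were the higher ones at 0h, by 0.79 (SE 0.179, edgeR adjusted p = 0.00218), a call lost without clone 4 library 2 (0.46, edgeR adjusted p = 0.241) or clone 8 library 1 at 0h (0.55, edgeR adjusted p = 0.142). At 2h it read 32.5 and 43.8 CPM in clone 4 and 38.3 and 32.9 CPM in clone 8. At 4h it read 51.7 and 46.2 CPM in clone 4 and 37.1 and 38.4 CPM in clone 8. All 8 induced libraries exceeded all 4 at 0h, and by 4h clone 4 stood above clone 8. At rev the gene read 16.6 and 16.2 CPM in clone 4 and 20.3 and 16.9 CPM in clone 8, below every library at 2h and 4h. Both clone 4 values at rev lay within the range of clone 4 at 0h, and both clone 8 values lay below clone 8 at 0h (-0.55 in clone 8 alone, edgeR adjusted p = 0.0248).

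For Zfp36l2 the changes were 0.80 at 2h (SE 0.181, edgeR adjusted p = 0.00526), 1.04 at 4h (SE 0.184, edgeR adjusted p = 0.000971) and -1.33 from 4h to rev (edgeR adjusted p = 0.000156). Against 2h, rev was at -1.09 (edgeR adjusted p = 0.00305). Clone 4 rose by 1.68 at 4h and clone 8 by 0.51, a difference of -1.18 (SE 0.231, edgeR adjusted p = 0.000883). At 2h the difference was -0.89 (edgeR adjusted p = 0.0114). It was not called without clone 4 library 2 at 0h (-0.56, edgeR adjusted p = 0.215), clone 8 library 1 at 0h (-0.65, edgeR adjusted p = 0.161), clone 4 library 2 at 2h (-0.67, edgeR adjusted p = 0.108) or clone 8 library 2 at 2h (-0.79, edgeR adjusted p = 0.0589). A gene on the opposite strand, AC132455.1, shares 2.97% of the exon length.

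Zfp36 (ENSMUSG00000044786, chr7:28376784-28380253, minus strand), which encodes tristetraprolin, was expressed at a lower level than Zfp36l1 and Zfp36l2. At 0h it read 3.8 and 3.33 CPM in clone 4 and 2.91 and 2.3 CPM in clone 8, from 16 to 28 counts. At 2h the values were 6.74 and 8.29 CPM in clone 4 and 4.71 and 5.68 CPM in clone 8, all above 0h. At 4h they were 4.4 and 9.14 CPM in clone 4 and 3.72 and 5.21 CPM in clone 8, overlapping those at 0h. The rise at 2h was 1.03 (SE 0.218, edgeR adjusted p = 0.00367), with 1.07 in clone 4 and 0.97 in clone 8 and a clone difference of -0.11 (95% interval -0.98 to 0.77).

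The 4h call of Zfp36 (0.79, edgeR adjusted p = 0.0305) was less steady. It was lost with library totals (edgeR adjusted p = 0.232), without the clone covariate (edgeR adjusted p = 0.0964), in each clone alone (edgeR adjusted p = 0.101 in clone 4 and 0.149 in clone 8) and without any 1 of 5 libraries. These were clone 4 library 1, clone 4 library 2 and clone 8 library 2 at 0h (edgeR adjusted p = 0.0598, 0.0688 and 0.0761) and clone 4 library 2 and clone 8 library 2 at 4h (edgeR adjusted p = 0.114 and 0.0696). At rev Zfp36 read 4.63 and 3.98 CPM in clone 4 and 3.94 and 4.22 CPM in clone 8, all just above 0h. The change from 4h to rev was -0.36 (95% interval -0.82 to 0.10) and was not called. Its opposite-strand neighbour Gm44710 shares 3.6% of the exon length and held 0 to 5 counts.

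The subunits of the deadenylase that these proteins recruit were tabulated beside them. Of 11 tested CCR4-NOT subunits, 4 were higher at 2h than at 0h and none was lower, with 9.49% of all genes higher and a median of 0.10 (all genes 0). The largest were those of Cnot4, a ubiquitin ligase subunit (0.55), and of the deadenylases Cnot6 (0.55) and Cnot7 (0.35). At 4h against 0h, 1 subunit passed (Cnot4, 0.39), a share near the 7.35% of all genes called higher. The relative Zfp36l3, a single-exon gene on chromosome X, held 0 to 6 counts at 0h and 1 to 30 at 2h, and was called higher at 2h (1.63, edgeR adjusted p = 0.0277). Unlike Zfp36l1 and Zfp36l2, it fell from 2h to 4h (-2.16, edgeR adjusted p = 0.0144) and rose from 4h to rev (2.08, edgeR adjusted p = 0.0182). At rev it was called above 0h (1.55, edgeR adjusted p = 0.048). In clone 8 alone it fell below the filter.

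Of the antiproliferative genes, Btg2 (ENSMUSG00000020423, chr1:134075170-134079120, minus strand) rose, fell and rose again. At 0h it read 20.4 and 21.5 CPM in clone 4 and 19.6 and 22.1 CPM in clone 8. At 2h it read 26.1 and 31.8 CPM in clone 4 and 37.5 and 40.5 CPM in clone 8. Every library at 2h exceeded every library at 0h. At 4h the values were 12.4 and 13.5 CPM in clone 4 and 24.1 and 26.3 CPM in clone 8, so that clone 4 lay below, and clone 8 above, all libraries at 0h. At rev they were 22 and 22.6 CPM in clone 4 and 31.5 and 36.6 CPM in clone 8, and only the first clone 4 library lay within the range at 0h.

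Btg2 changed by 0.69 at 2h (SE 0.14, edgeR adjusted p = 0.00273), by -0.84 from 2h to 4h (edgeR adjusted p = 0.00123) and by 0.57 from 4h to rev (edgeR adjusted p = 0.017). At 4h against 0h the value was -0.16 (95% interval -0.47 to 0.16), while clone 8 minus clone 4 was 0.99 (SE 0.209, edgeR adjusted p = 0.00218). Without clone 4 library 1 at 4h that difference was 0.92 (edgeR adjusted p = 0.0537). The rise at rev was not called without clone 4 library 1 at 4h (0.45, edgeR adjusted p = 0.0796), clone 4 library 2 at 4h (0.52, edgeR adjusted p = 0.0604) or clone 8 library 2 at rev (0.49, edgeR adjusted p = 0.0648), nor with library totals (edgeR adjusted p = 0.517). With library totals the rise at 2h had an edgeR adjusted p of 0.0573. Without the clone covariate none of these 3 changes was called (edgeR adjusted p = 0.0747, 0.0676 and 0.245). The order of the groups for Btg2, with 2h and rev above 4h, is also the order of the third principal component. Library totals followed it only in part, being 8.08 and 6.6 M at 4h and 6.16 and 8.07 M at rev in clone 8. The part of the component and of the totals in the Btg2 changes was not tested.

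Btg1 (ENSMUSG00000036478, chr10:96617006-96622809, plus strand) did not pass in any comparison between groups. It ranged from 19.2 to 34 CPM at 0h, 21.8 to 36.2 at 2h, 16.8 to 24.8 at 4h and 16.3 to 34.2 at rev, and these ranges overlapped throughout. The change at 2h against 0h was 0.02 (95% interval -0.39 to 0.43). From 4h to rev the clones differed by -0.98 (SE 0.267, edgeR adjusted p = 0.0124), with 16.8 and 19.8 CPM in clone 4 at 4h against 29.4 and 34.2 CPM at rev, and 24.2 and 24.8 CPM in clone 8 at 4h against 16.3 and 25.3 CPM at rev. That difference was not called without clone 4 library 1 at 4h (-0.84, edgeR adjusted p = 0.12), clone 4 library 2 at rev (-0.86, edgeR adjusted p = 0.0709) or clone 8 library 1 at rev (-0.77, edgeR adjusted p = 0.0603). The related antiproliferative gene Tob1 went the other way from Btg2 at 2h, by -0.53 (edgeR adjusted p = 0.00962). It reached -0.94 at 4h against 0h (edgeR adjusted p = 0.000171) and rose by 0.88 from 4h to rev (edgeR adjusted p = 0.000393). Tob2 was -0.09 at 2h (95% interval -0.33 to 0.14) and was not called, and Btg3 and Btg4 fell below the filter.

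Known targets of p53 were tabulated beside Btg2. Of 12 tested, 7 were higher and 1 lower at 2h than at 0h (17% of all genes were called), with a median of 0.38 (all genes 0). Eda2r (0.87), Mdm2 (0.77) and Ccng1 (0.76) were the largest, Mdm2 being the ubiquitin ligase that limits p53. From 2h to 4h, 7 fell and none rose (6.36% of all genes fell), with Cdkn1a, the cell cycle inhibitor p21, at -1.25 and Mdm2 at -0.83. From 4h to rev, 6 rose and none fell (4.5% of all genes rose), led by Cdkn1a (1.39), Sesn1 (0.84) and Phlda3 (0.59). At rev against 0h, 5 were higher and 1, Gdf15, was lower (-0.67), with 10.5% of all genes called. Median changes were -0.54 from 2h to 4h and 0.37 from 4h to rev (all genes 0 in both). As for Btg2, the median of this list stood higher at 2h and rev than at 4h, the order of the third principal component, whose part here was not tested. Not every gene did so. In mean log2 CPM minus 0h, Perp was highest at 4h (0.177 at 2h, 0.966 at 4h and 0.657 at rev). Sesn2 was lower at rev (0.074) than at 4h (0.169).

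**Figure D2:**
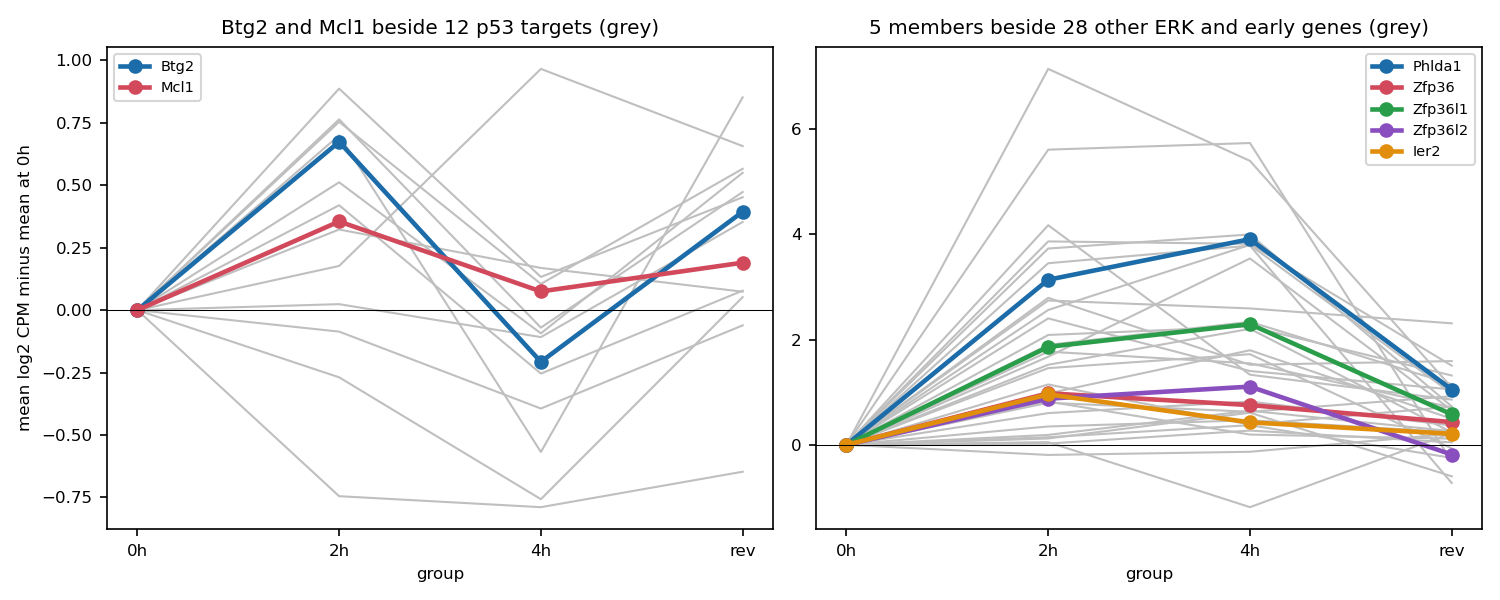
Mean log2 CPM of each group minus the mean at 0h (vertical axes) across the groups (horizontal axes), for Btg2 and Mcl1 over 12 p53 targets in grey (left) and for Phlda1, Zfp36, Zfp36l1, Zfp36l2 and Ier2 over 28 other ERK and early genes in grey (right). Btg2 falls between 2h and 4h and is higher again at rev, whereas Phlda1, Zfp36l1 and Zfp36l2 are highest at 4h and low at rev. The lines average both clones, and in clone 8 Phlda1 was higher at 2h (2.954) than at 4h (2.371).

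Among the IER genes, Ier2 (ENSMUSG00000053560, chr8:84661331-84662852, minus strand) was the abundant and responsive one. At 0h it read 44.9 and 49.9 CPM in clone 4 and 40.4 and 42 CPM in clone 8. At 2h it read 109 and 123 CPM in clone 4 and 66.3 and 61.8 CPM in clone 8. All libraries at 2h lay above all at 0h, with clone 4 far above clone 8. At 4h the values were 61.5 and 65.8 CPM in clone 4 and 59.1 and 52.2 CPM in clone 8, still above all at 0h. At rev they were 49.7 and 46.2 CPM in clone 4 and 56 and 52.8 CPM in clone 8, overlapping both 0h and 4h.

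The rise of Ier2 at 2h was 0.98 (SE 0.142, edgeR adjusted p = 0.00015), 1.27 in clone 4 and 0.64 in clone 8, a difference of -0.64 (SE 0.15, edgeR adjusted p = 0.00594). It fell by 0.55 from 2h to 4h (edgeR adjusted p = 0.0158), and here too the clones differed, by 0.67 (SE 0.146, edgeR adjusted p = 0.0014). In clone 8 alone the fall was not called (edgeR adjusted p = 0.22), nor was it with library totals (edgeR adjusted p = 0.116), without the clone covariate (edgeR adjusted p = 0.09), or without clone 4 library 2 at 2h (-0.42, edgeR adjusted p = 0.0655) or clone 4 library 1 at 4h (-0.51, edgeR adjusted p = 0.0544). At 4h against 0h the change of 0.43 (95% interval 0.13 to 0.73) missed the threshold in edgeR (adjusted p = 0.0567) and passed in DESeq2 (adjusted p = 0.0465). It also passed in edgeR without clone 4 library 2 at 2h, clone 8 library 2 at 2h, clone 4 library 2 at rev or clone 8 library 1 at rev (adjusted p = 0.0317, 0.0367, 0.0476 and 0.0469). At rev against 2h it was at -0.78 (edgeR adjusted p = 0.0054), but clone 8 by itself missed the threshold (edgeR adjusted p = 0.2), as did the fit without the clone covariate (edgeR adjusted p = 0.0718).

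Ier3 (ENSMUSG00000003541, chr17:35821684-35822923, plus strand) was measured from 5 to 36 counts per library and did not pass in any comparison. It ranged from 1.06 to 5.17 CPM at 0h, 1.19 to 3.11 at 2h, 2.29 to 2.8 at 4h and 0.873 to 2.05 at rev. The libraries at rev all lay below those at 4h, but the change of -0.70 (95% interval -1.60 to 0.19) was not called. At 2h against 0h it was -0.24 (95% interval -1.02 to 0.55), so neither a rise nor a fall was detectable at this depth.

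Ier5 (ENSMUSG00000056708, chr1:155096361-155099636, minus strand) was as sparse, with 1 to 30 counts per library. In clone 4 it read 1.2 and 0.606 CPM at 0h and 2.33 and 3.59 CPM at 2h. In clone 8 it read 1.14 and 2.16 CPM at 0h and 1.6 and 1.4 CPM at 2h. The clone 4 libraries at 2h exceeded all at 0h and those of clone 8 did not. Over both clones the change was 0.68 (95% interval -0.17 to 1.53, edgeR adjusted p = 0.266). Clone 4 alone gave 1.74 (edgeR adjusted p = 0.0231), and the clone difference did not pass (edgeR adjusted p = 0.111). Its relative Ier5l read 20.2 to 26 CPM at 0h and changed by -0.37 at 2h (95% interval -0.67 to -0.06) without a call. Heat shock genes, whose factor HSF1 binds IER5, had 1 of 7 tested members higher at 2h (Hspa8, 0.30; 9.49% of all genes were higher) and 2 at 4h (Hsph1, 0.68, and Hspa8, 0.52; 7.35% of all genes).

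Phlda1 (ENSMUSG00000020205, chr10:111506286-111508645, plus strand) went from near absence to the strongest induction of the 10 genes. At 0h it held 3, 1, 2 and 3 counts in the 4 libraries, 0.152 to 0.599 CPM. At 2h it read 5.45 and 5.67 CPM in clone 4 and 3.57 and 4.63 CPM in clone 8. At 4h it read 26.7 and 23.6 CPM in clone 4 and 3.22 and 2.14 CPM in clone 8. Between 2h and 4h clone 4 thus went on rising, while both clone 8 libraries at 4h lay below both at 2h. At rev it read 0.565 and 1.26 CPM in clone 4 and 1.82 and 0.512 CPM in clone 8, from 4 to 13 counts.

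With so few counts at 0h, the size of the rise of Phlda1 is given as a ratio of depth-scaled summed counts with an exact interval that covers counting error only. At 2h the ratio to 0h was 14.5 (95% interval 7.48 to 32.2). At 4h it was 74.3 in clone 4 (28.7 to 275) and 9.27 in clone 8 (3.7 to 29.9). The intervals of the clones at 4h overlap narrowly, and the difference in the change from 0h was not called (-3.00, edgeR adjusted p = 0.12). From 2h to 4h the ratio was 4.61 in clone 4 (3.6 to 5.96) and 0.678 in clone 8 (0.47 to 0.963), and that difference was called (log2 difference -2.75, SE 0.37, edgeR adjusted p = 2.37e-06). Over both clones the change from 2h to 4h was 1.06 (95% interval 0.23 to 1.89) and was not called, but passed without clone 8 library 2 at 2h (1.34, edgeR adjusted p = 0.0492), clone 8 library 1 at 4h (1.40, edgeR adjusted p = 0.0281) or clone 8 library 2 at 4h (1.40, edgeR adjusted p = 0.0179). edgeR gave an adjusted p of 0.000854 at 2h and 4.18e-05 at 4h against 0h, with fitted changes that depend on the prior count.

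Scaled for depth, summed Phlda1 counts at rev were 0.0761 of those at 4h (95% interval 0.0498 to 0.112; edgeR adjusted p = 0.000156). The fall was -4.72 in clone 4 and -1.60 in clone 8 (edgeR adjusted p = 0.0621 in clone 8 alone). The difference of 3.14 (SE 0.748, edgeR adjusted p = 0.00415) was lost (2.34) without clone 8 library 1 at rev, the library with the fewest counts outside the dominant features. Scaled in the same way, counts at rev were 2.9 times those at 0h (95% interval 1.33 to 6.98), a change that edgeR did not call. The value at rev against 2h (-2.71, edgeR adjusted p = 0.0162) was not called without clone 4 library 1 (-2.28, edgeR adjusted p = 0.115) or clone 4 library 2 at rev (-2.68, edgeR adjusted p = 0.0783), nor without the clone covariate (-2.32, edgeR adjusted p = 0.28). A gene on the opposite strand, Gm28592, shares 33% of the exon length and had 0 counts in all 16 libraries. The imprinted relative Phlda2 was higher at 2h (1.37, edgeR adjusted p = 0.00898) and at 4h (1.80, edgeR adjusted p = 0.00155). From 4h to rev its change of -0.26 was not called (edgeR adjusted p = 0.605), and at rev it was called above 0h (1.54, edgeR adjusted p = 0.00788). Against 0h, Phlda2 at rev was at 2.28 in clone 4 alone and 0.57 in clone 8 alone. In clone 4 alone it was at 2.15 at 2h and 2.83 at 4h, and in clone 8 alone at 0.30 and 0.11. These differences between the clones were not tested.

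Mcl1 (ENSMUSG00000038612, chr3:95658788-95663176, plus strand) had the highest level and the smallest change that passed. At 0h it read 142 and 145 CPM in clone 4 and 134 and 141 CPM in clone 8. At 2h it read 175 and 187 CPM in clone 4 and 184 and 173 CPM in clone 8. Every library at 2h lay above every library of 0h and of 4h. At 4h it read 154 and 153 CPM in clone 4 and 149 and 136 CPM in clone 8, and at rev 154 and 166 CPM in clone 4 and 149 and 173 CPM in clone 8.

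The rise of Mcl1 at 2h was 0.36 (SE 0.0716, edgeR adjusted p = 0.00258), with 0.32 in clone 4, 0.38 in clone 8 and a clone difference of 0.04 (95% interval -0.24 to 0.33). The fall from 2h to 4h was -0.28 (edgeR adjusted p = 0.0166). With library totals the rise was not called (edgeR adjusted p = 0.356). The fall was lost with library totals (edgeR adjusted p = 0.408), without the clone covariate (edgeR adjusted p = 0.0569), in clone 4 alone (edgeR adjusted p = 0.0908) and without clone 8 library 1 at 2h (-0.25, edgeR adjusted p = 0.0505). Its groups follow the order of the third principal component as those of Btg2 do, and the part of that order in the changes was not tested. Of the other survival genes, Bcl2l1 was higher at 4h (0.58, edgeR adjusted p = 0.0225) and Bcl2l2 lower at 2h (-0.60, edgeR adjusted p = 0.0184), while Bcl2 and Bcl2a1a fell below the filter. The Bcl2l1 change at 4h was 0.95 in clone 4 alone and 0.19 in clone 8 alone, a difference that was not tested. A list of BH3-only and effector genes of the BCL2 family had 9 tested members. Of these, Pmaip1, which encodes NOXA, was higher at 2h (1.85, edgeR adjusted p = 2.7e-05), and Bmf (-1.18) and Hrk (-1.14) were lower, with 17% of all genes called. After 4 h, Pmaip1 (1.06, edgeR adjusted p = 0.00599) and Bcl2l11, which encodes BIM (0.87, edgeR adjusted p = 0.0124), were higher and Bmf lower (-0.90, edgeR adjusted p = 0.0115). The Bcl2l11 change was 1.71 in clone 4 alone and 0.03 in clone 8 alone, a difference that was not tested, and over both clones it fell by 1.16 from 4h to rev (edgeR adjusted p = 0.0024).

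**Figure D3:**
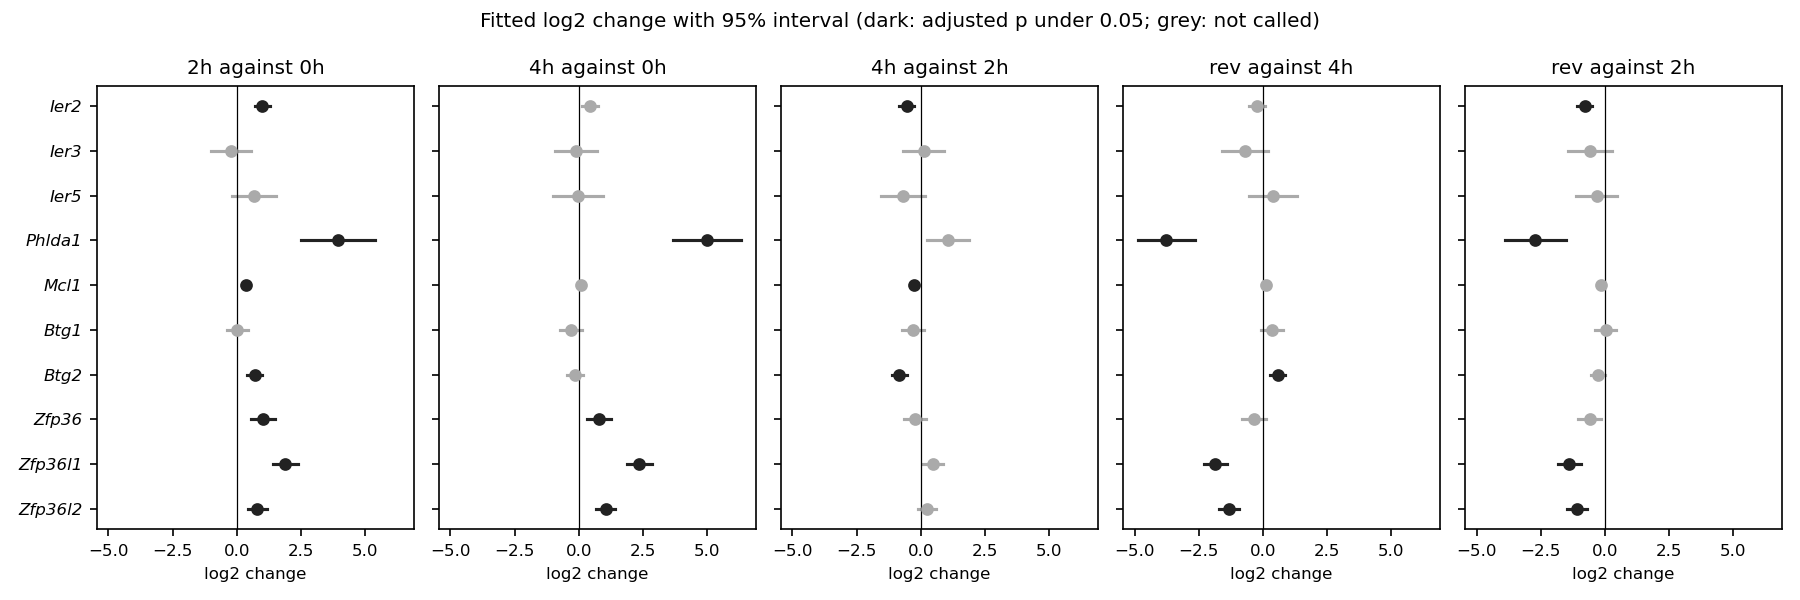
Log2 change of the 10 genes with 95% intervals (horizontal axes) in 5 comparisons between groups, dark where edgeR's adjusted p was under 0.05 and grey where it was not. Phlda1 and Zfp36l1 have the largest rises at 2h and 4h and the largest falls at rev against 4h, and Ier3, Ier5 and Btg1 are grey in every panel.

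With edgeR over both clones, none of the 10 genes was called at rev against 0h, in either direction. DESeq2 called Mcl1 (0.20, DESeq2 adjusted p = 0.0399). In clone 8 fitted alone, edgeR called Ier2 (0.39, adjusted p = 0.0222), Btg2 (0.74, adjusted p = 0.000675) and Zfp36l1 (0.76, adjusted p = 0.0429) higher and Zfp36l2 (-0.55, adjusted p = 0.0248) lower. In clone 4 fitted alone, Btg1 was called higher (0.56, edgeR adjusted p = 0.0335), and no difference between the clones was tested for this comparison. Clone 8 had 2 libraries at rev, among them library 1 with the fewest counts outside the dominant features, and its fit was not repeated without that library. The share of all genes called in the fits of a single clone is not given here, so these calls are not set against it. At rev against 0h the fitted changes ran from -0.82 for Ier3 to 1.23 for Phlda1, with wide intervals for both (-1.70 to 0.06 and -0.79 to 3.24). The 2 genes with an unadjusted p under 0.05 were Mcl1 (0.20, 95% interval 0.04 to 0.35) and Btg2 (0.41, 95% interval 0.11 to 0.71). Btg2 passed without clone 4 library 2 at 0h (0.53, edgeR adjusted p = 0.0328) or clone 4 library 1 at 4h (0.42, edgeR adjusted p = 0.0431). All 4 libraries at rev lay above all at 0h for Mcl1, Zfp36 and Zfp36l1, a pattern found upward in 6.19% of all genes. Leaving out clone 8 library 1 at rev changed no count of calls between groups at rev, which stayed at 4 against 4h, 0 against 0h and 4 against 2h.

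The clones were compared by testing the clone 8 change minus the clone 4 change. At 2h against 0h, 2 of the 10 genes differed (Ier2 and Zfp36l2, both smaller in clone 8), with 7.94% of all genes called. At 4h against 0h, 3 differed (Zfp36l1 and Zfp36l2 lower and Btg2 higher in clone 8), with 5.72% of all genes called. At 4h against 2h, Ier2 and Phlda1 differed (14.8% of all genes), and at rev against 4h, Phlda1, Zfp36l1 and Btg1 (13.2% of all genes). At 0h, Zfp36l2 differed in level (11.7% of all genes). With library totals in place of TMM, only Phlda1 at 4h against 2h and Phlda1 and Btg1 at rev against 4h were still called, and the other differences were not. Those of Ier2 were -0.07 at 2h against 0h (edgeR adjusted p = 0.911) and 0.41 at 4h against 2h (edgeR adjusted p = 0.672). For Zfp36l2 they were -0.31 at 2h and -0.84 at 4h against 0h and 0.72 in level at 0h (edgeR adjusted p = 0.59, 0.418 and 0.19). For Zfp36l1 they were -0.72 for the change from 0h to 4h and 0.79 for that from 4h to rev (0.567 and 0.169 as edgeR adjusted p), and for Btg2 1.29 at 4h against 0h (edgeR adjusted p = 0.0887). Each clone is 1 line, so a difference that belongs to these clones cannot be told apart from variation among lines in general.

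**Figure D4:**
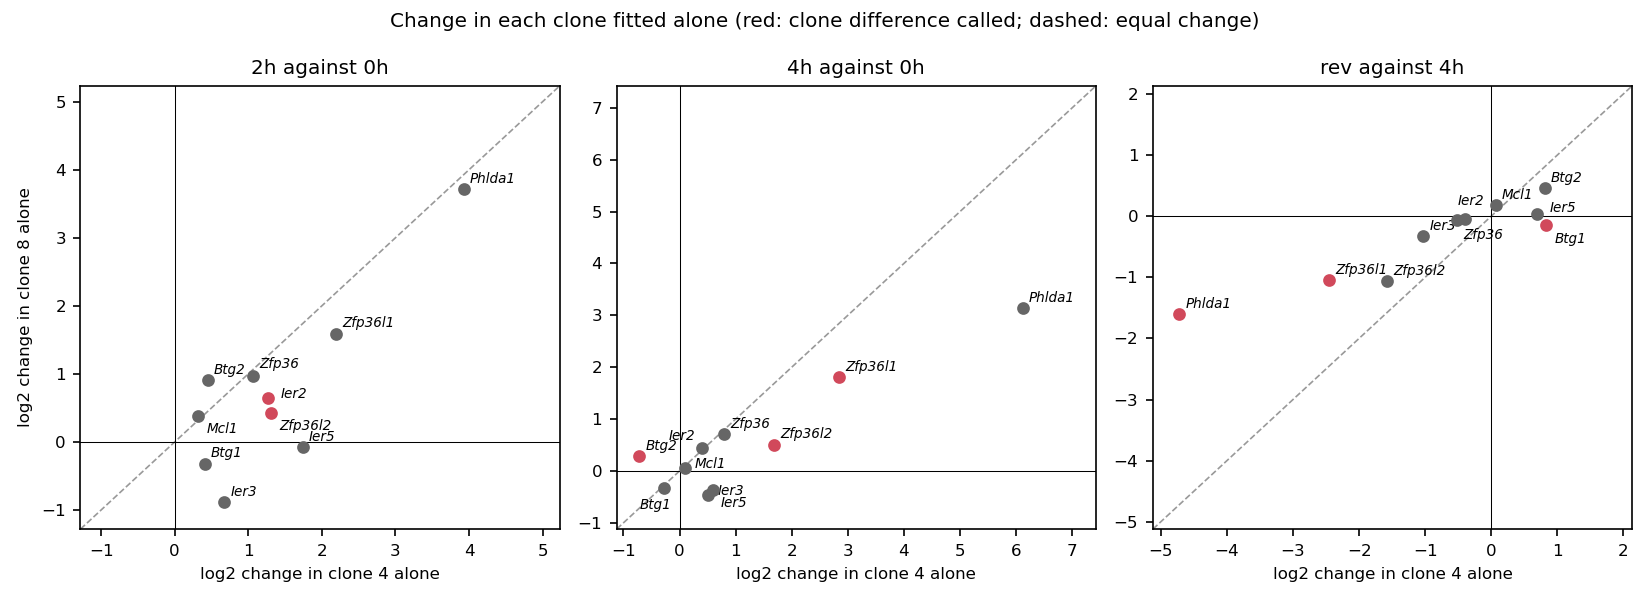
Log2 change in clone 8 (vertical axes) against the change in clone 4 (horizontal axes), each clone fitted alone, for 3 comparisons, with red points where the difference between clones was called and a dashed line of equal change. Zfp36l1 and Zfp36l2 lie below the line at 4h against 0h, and Btg2 lies above it.

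Among the other ERK-responsive and early genes, 28 of 32 listed were tested. Of these, 20 were higher and none lower at 2h (median 1.46, all genes 0), and 21 were higher and 1 lower at 4h (median 1.64, all genes -0.01). From 4h to rev 16 fell and 1 rose (median -0.96, all genes 0). Over all genes, 9.49% were higher at 2h, 7.35% higher at 4h and 5.1% lower at rev than at 4h. The transcription factor gene Egr1 (7.30) and the feedback gene Spry4 (5.60) were among those higher at 2h. From 2h to 4h, 7 of the 28 fell and 2 rose, while 6.36% of all genes fell and 12.1% were called in either direction. Fos was at -3.04, the direction of Ier2, and Etv4 at 1.91.

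Genes with a pattern like that of each responsive gene were ranked by the lower of the Pearson correlations of log2 CPM in the clones, over 8 libraries per clone and 6620 or 6621 genes with a mean of at least 10 CPM. Libraries of a group share their treatment, so these values describe and do not test. For Phlda1 the closest were Noct (0.935), Cdc42ep4 (0.925) and Slc39a14 (0.921), and for Zfp36l1 Slc39a14 (0.964), Zfp462 (0.939) and Rbpj (0.932). For Zfp36l2 those near the top included Dusp6 (0.927), the phosphatase that inactivates ERK, and Irs2 (0.912). For Ier2 they were Ticrr (0.921), Atl2 (0.908) and Ccnl1 (0.896), and for Btg2 Ubr3 (0.93), Mdm2 (0.926) and Relch (0.924). Within the 10 genes, Phlda1 and Zfp36l1 were correlated at 0.956 in clone 4 and 0.907 in clone 8, and Zfp36l1 and Zfp36l2 at 0.959 and 0.668.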

How the data were processed

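RNA was measured in 16 libraries. The values are raw whole-number counts as deposited by the authors, without normalization, over 52636 Ensembl gene IDs. The submitters' processing notes name bcl2fastq 2.19.1, STAR 2.5.3a and the build mm10. The counting program, annotation and strand setting are not given in the sources used here. Symbols and 1-based coordinates came from GENCODE M21 on GRCm38, by gene ID (52489 matched and 147 did not).

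Counts were tested with edgeR 4.0.16 (R 4.3.3) and its quasi-likelihood test after filterByExpr by group (minimum count 10, minimum total 15) and TMM scaling. Group and clone were the terms of the model, fitted over all libraries. Benjamini-Hochberg adjustment ran over 12742 genes, with calls at an adjusted p under 0.05. A standard error is the log2 change over the root of F. Clone differences were interaction terms in a model of group and clone combinations, and each clone was also fitted alone. DESeq2 1.42.0, other scalings, filters and designs, and leaving out each library were the alternatives. Log2 CPM used a prior count of 2, and 3 counts, the floor, equalled 0.21 to 0.908 CPM. Intervals of counts and floors cover counting error only.

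The 2 libraries of a clone and group differed beyond sampling noise (1.3 to 4.16 for chi-square over its degrees of freedom) and were kept as separate samples. Steps were tested on simulated data. All 10 members are described whatever their values. Family relatives that passed the filter are named, from the other lists at most 3 called genes with the largest change per comparison, and the 3 most alike genes of members with at least 3 calls, of which 1 is not reported here. The list genes Cyr61 and Ctgf appear in the annotation as Ccn1 and Ccn2. Members and lists were chosen with earlier results of these data known.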

Additional observations from a re-analysis of the deposited data

Results flagged for a closer look

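Of 40 groups of 4 libraries checked, 1 held a library far from the others in its group. This was Zfp36l2 at rev, where clone 8 library 1 read 20.3 CPM against 16.2 to 16.9 CPM in the other 3, and chance flags about 1 in 20 groups. The same library had the fewest counts outside the dominant features.

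Responses that differed between the clones by the interaction test are listed here on the log2 scale, positive where clone 8 changed more upward than clone 4. At 2h against 0h the difference was -0.64 for Ier2 and -0.89 for Zfp36l2. At 4h against 0h it was 0.99 for Btg2, -1.03 for Zfp36l1 and -1.18 for Zfp36l2. At 4h against 2h it was 0.67 for Ier2 and -2.75 for Phlda1. At rev against 4h it was 3.14 for Phlda1, -0.98 for Btg1 and 1.42 for Zfp36l1.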

How the results depend on the processing

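Counts of the 10 genes called are limited by 4 libraries per group, by 1.3 to 5.46 M counts outside the dominant features, and by few counts for Ier3, Ier5 and Phlda1. The share of all genes called under each alternative setting is not given here. A count that moves with a setting therefore cannot be set against the move over all genes. RLE factors and removal of the features above 1% of counts changed no count of calls between groups by over 1.5 times. With the replicate block, the calls numbered 7 at 2h against 0h, 4 at 4h against 0h, 3 at 4h against 2h, 4 at rev against 4h, 0 at rev against 0h and 4 at rev against 2h, as without it, and 2, 3, 2 and 3 for the clone differences in the 4 comparisons tested; the numbers did not pair libraries beyond the clone (correlation of deviations 0.375 for the same clone and number, 0.384 for the other number, -0.0106 with clone means removed). At 4h against 2h the count went from 3 to 1 with library totals, 5 with no filter, 0 with no clone covariate, 5 in clone 4 alone, 1 at an adjusted p under 0.01 and 0 when a log2 change of 1 or more was also required, which left 3 of 7 at 2h against 0h. At rev against 0h it went from 0 to 1 with DESeq2, 1 with no filter, 1 in clone 4 alone and 4 in clone 8 alone, and at rev against 2h from 4 to 1 with no clone covariate. Clone differences fell with library totals to 0 at 2h against 0h, 0 at 4h against 0h, 1 at 4h against 2h and 0 at 0h, where no filter gave 2. At an adjusted p under 0.01 there was 1 at 2h against 0h, and at an absolute change of at least 1 there were 0 at 2h against 0h and 1 at 4h against 2h. Leaving out each replicate in turn gave 0 to 1 at rev against 0h and, for clone differences, 1 to 4 at 2h against 0h, 2 to 4 at 4h against 2h, 1 to 3 at rev against 4h and 0 to 2 at 0h.

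Direction reversed only among values called in neither setting. In clone 8 alone, Btg1 was -0.32 at 2h against 0h, -0.48 at rev against 0h, -0.16 at rev against 2h and -0.14 at rev against 4h, Btg2 0.28 at 4h against 0h, Ier3 0.07 at rev against 2h, Ier5 -0.08 at 2h against 0h and -0.34 at rev against 0h, and Phlda1 -0.56 at 4h against 2h. In clone 4 alone, Ier3 was 0.67 at 2h against 0h, 0.50 at 4h against 0h and -0.18 at 4h against 2h, Ier5 0.59 at 4h against 0h, and Zfp36l2 0.11 at rev against 0h. With library totals, Btg1 was -0.14 at rev against 0h and -0.27 at rev against 2h, Ier2 -0.07 and Mcl1 -0.05 at rev against 0h, Mcl1 -0.08 at rev against 4h, and Ier3 -0.01 at 4h against 2h. Btg1 at rev against 2h was -0.01 with DESeq2 and 0 with no clone covariate, and Ier5 at 4h against 0h was 0.01 with the replicate block. Leaving out each replicate in turn, Btg1 ran from -0.16 to 0.18 at 2h against 0h, -0.11 to 0.21 at rev against 0h and -0.13 to 0.23 at rev against 2h, Ier3 from -0.53 to 0.31 at 2h against 0h, -0.40 to 0.43 at 4h against 0h and -0.18 to 0.30 at 4h against 2h, and Ier5 from -0.34 to 0.42 at 4h against 0h, -0.07 to 0.77 at rev against 0h and -0.04 to 0.58 at rev against 4h. The cause was not tested for any of these.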
